A study of Mus musculus with 18 samples.

Results

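The insulin-like growth factor (IGF) genes described here are 2 ligands (Igf1, Igf2), 2 receptors (Igf1r, Igf2r), 5 binding proteins (Igfbp3, Igfbp4, Igfbp5, Igfbp6, Igfbp7) and the mRNA-binding protein gene Igf2bp2. They were chosen by name, with earlier results of these data known, and all 10 were found among the 33641 gene symbols of the table. The libraries were made from the quadriceps and the white fat of 9 male wild-type mice of the inbred strain DBA/2J. The labels give their age as about 20 weeks, which the protocol places after 12 weeks of high-fat diet, at the time of treatment. The diet went on through 12 weeks of injections into the peritoneum, so the age at collection is not clear from the labels. A group of 3 mice received the vehicle every day, 3 received prednisone at 1 mg/kg once a week, and 3 received 1 mg/kg every day. Prednisone is a synthetic glucocorticoid that is activated in the body and acts through the glucocorticoid receptor. Both tissues were collected from every mouse 24 hours after its last injection, which gave 18 libraries. No lean group is part of the design, so obesity is shared by every group. The design text names 2 adipose libraries of daily mice, whereas the labels and the table hold 3.

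IGF1 and IGF2 are secreted peptides that drive growth and survival through the IGF1 receptor, a tyrosine kinase related to the insulin receptor. The IGF2 receptor, also known as the cation-independent mannose-6-phosphate receptor, carries IGF2 to lysosomes and has no kinase. Binding proteins hold the ligands outside cells and set how much of them reaches the receptor. In muscle both ligands are known for their part in fibre growth and regeneration, and in fat tissue Igf1 is made by adipocytes, stromal cells and macrophages.

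The labelled tissues were checked on marker genes. All 10 skeletal muscle markers were higher in muscle and all 8 adipocyte markers were higher in adipose tissue in vehicle mice. Summed adipocyte markers reached 670 to 1751 TPM in muscle libraries and summed skeletal muscle markers 152 to 1551 TPM in adipose libraries, so both carry some RNA of the other kind. TPM is a length-corrected transcript abundance scaled to a fixed sum in each library. Read counts are lost in it, so the depth is unknown and counting error cannot be given. Between 11781 and 12200 genes reached 1 TPM in a muscle library, and between 13413 and 14076 in an adipose one. The library numbered 3 lay between the other two of its group for 40.7% to 52.2% of the tested genes, where equal shares would give 33.3%, so results are also given without it. In bulk tissue, fewer cells of a type and less RNA per cell cannot be told apart.

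Upstream sequences of the 3 genes whose changes are described most fully are printed first, so that the start sites named below can be read. They come from the RefSeq promoter table (GRCm38.p6), run 5′ to 3′ on the gene's own strand and end at the base before the first transcribed base. The Igf2 stretch (chr7:142657497-142657746, minus strand) precedes the start that is shared with the transcript ENSMUST00000000033.11. The Igfbp5 stretch (chr1:72874885-72875115, minus strand) leaves out bases that GENCODE M21 assigns to the first exon. The Igfbp3 stretch (chr11:7213924-7214173, minus strand) precedes the outermost start of the gene. Capitals mark any match to 4 motifs, read on both strands.
Igf2: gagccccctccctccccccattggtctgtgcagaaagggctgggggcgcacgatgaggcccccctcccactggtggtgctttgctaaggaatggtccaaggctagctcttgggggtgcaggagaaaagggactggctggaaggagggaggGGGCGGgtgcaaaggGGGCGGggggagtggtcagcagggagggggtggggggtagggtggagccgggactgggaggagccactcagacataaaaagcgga
Igfbp5: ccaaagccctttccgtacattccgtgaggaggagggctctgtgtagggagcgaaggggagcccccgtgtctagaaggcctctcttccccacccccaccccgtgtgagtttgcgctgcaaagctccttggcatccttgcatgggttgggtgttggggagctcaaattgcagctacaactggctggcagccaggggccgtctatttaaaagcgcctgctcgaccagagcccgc
Igfbp3: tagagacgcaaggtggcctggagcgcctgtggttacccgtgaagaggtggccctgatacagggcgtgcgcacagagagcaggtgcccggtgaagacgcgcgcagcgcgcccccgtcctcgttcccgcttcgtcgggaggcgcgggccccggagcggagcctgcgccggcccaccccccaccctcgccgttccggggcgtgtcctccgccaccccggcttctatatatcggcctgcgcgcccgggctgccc

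The motifs were the TATA box TATAAA, found in 12.4% of 32851 RefSeq windows of 250 bases, the glucocorticoid receptor half-site AGAACA (16.1%), the E-box CAGCTG (13.0%) and the GC box GGGCGG (32.7%). The first 3 motifs have no match in the 3 printed stretches. Of 2 further Igf2 windows searched, the one before the outermost start (chr7:142666817-142667066) holds the half-site once, on the reverse strand as TGTTCT, beginning 85 bases before the start of ENSMUST00000105935.7. The other has no match to any of the 4 motifs. The GC box was added only after these stretches had been read and the other motifs had given no match, so its matches are a choice made on the sequence itself. It occurs in the Igf2 stretch, beginning 100 and 85 bases before the transcript start. A match is a description of the letters and no evidence of binding.

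In muscle, daily prednisone was followed by more Igf2 and less Igfbp5. Igf2 rose by 1.37 ± 0.18 (SE) on the log2(TPM + 1) scale and Igfbp5 fell by 0.74 ± 0.10, and none of the other 8 genes passed the test. In adipose tissue the weekly regimen was followed by more Igfbp3, Igfbp6 and Igf2r, and the daily regimen by no called change. The threshold throughout is an adjusted p of 0.05 from limma over all genes tested, with 3 libraries a group. The share of all tested genes called is the background for each count. It was 13.7% in muscle for daily against vehicle, where 2 of the 10 genes were called, a count near that share. For weekly against vehicle it was 0.049% in muscle, where 0 were called. In adipose tissue it was 7.43% for weekly against vehicle (5.72% in the higher direction), where 3 of the 10 were called, all higher, and 0.00707% for daily against vehicle, with 0 called. Where 0 were called by limma, an unadjusted p under 0.05 was reached by 2 genes in weekly muscle (Igf1, Igfbp5) and 3 in daily adipose tissue (Igfbp4, Igfbp5, Igf2bp2). Over all genes that threshold was reached by 15.4% and 9.22%, so the first count is near its background. Between regimens, 1 of the 10 was called in muscle against a background of 1.77%, and 1 in adipose tissue against 0.311%. Comparisons within a tissue share their vehicle or treated libraries. A lack of overlap between groups, given below for some genes, describes 3 libraries against 3. Its share over all genes is not given here, so by itself it was not read as a change.

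**Figure D1:**
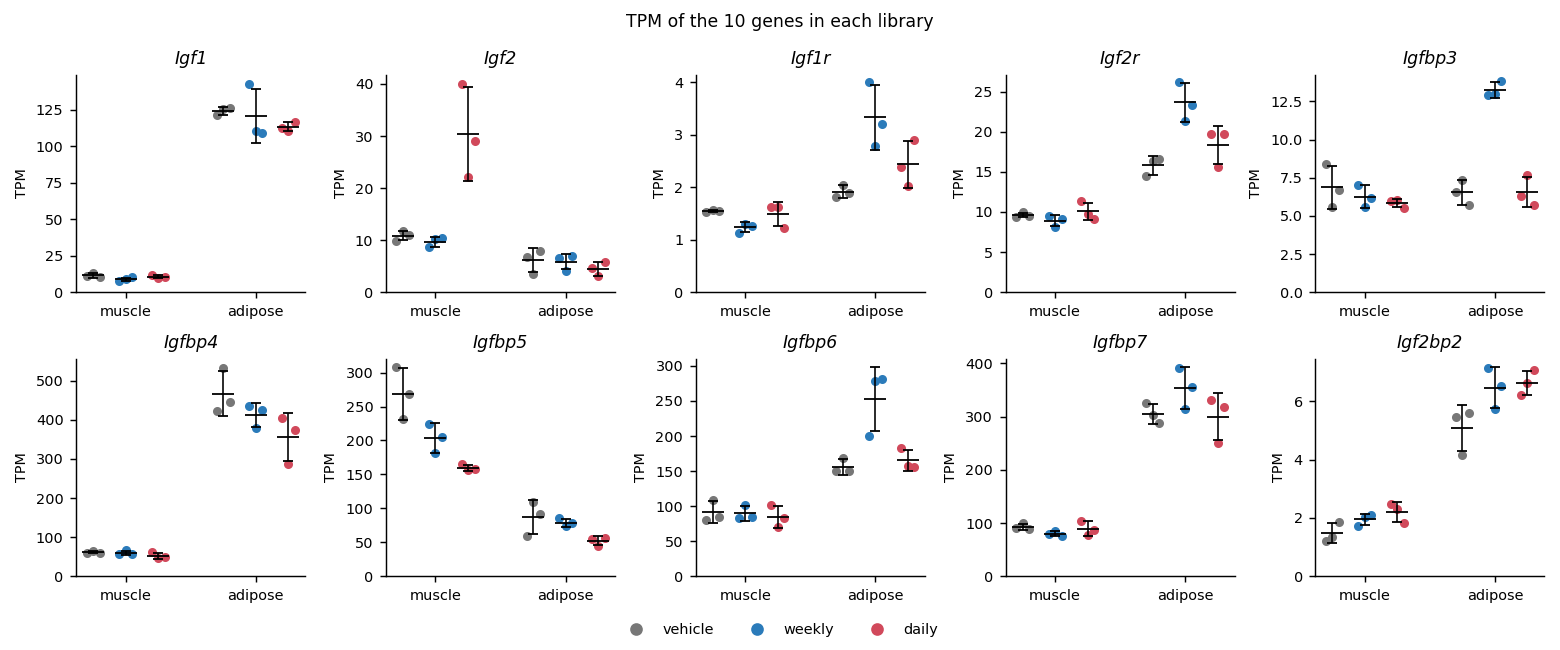
TPM of each of the 10 genes in the 18 libraries, with muscle on the left and adipose tissue on the right of each panel, a point per library, and the mean with its SD (n = 3) as a dash with bars. Igf2 in daily muscle (22.2 to 40.0 TPM) and Igfbp3 in weekly adipose tissue (12.9 to 13.8 TPM) lie above all other libraries of their tissue.

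Igf2 (ENSMUSG00000048583.16, chr7:142650766-142666816, minus strand, GRCm38), the ligand best known for fetal growth and expressed from the paternal allele in most tissues, was the member with the largest change. In muscle it stood at 9.92, 11.7 and 11.0 TPM in vehicle mice, at 8.62, 10.3 and 10.3 in weekly mice, and at 40.0, 22.2 and 29.0 in daily mice. Every daily library was above every vehicle and weekly library. The ratio of mean TPM between daily and vehicle was 2.80, with an adjusted p of 0.00327 in limma. Weekly against daily gave a log2 difference of -1.51 ± 0.18 with an adjusted p of 0.00413. Weekly against vehicle gave -0.15, with a 95% interval from -0.54 to 0.25 and overlapping libraries.

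In adipose tissue Igf2 was 6.83, 3.55 and 7.98 TPM in vehicle, 6.50, 4.17 and 7.02 in weekly and 4.58, 3.04 and 5.78 in daily mice. All 3 groups overlapped there, and neither regimen gave a called difference from vehicle. The daily effect in muscle less that in adipose tissue was 1.72 on the log2 scale, with an adjusted p of 0.081 in limma, so a difference between the tissues was not called. The background of that comparison was 0.0596%, with 0 of the 10 genes called by limma and 1, Igf2, at an unadjusted p under 0.05, which 14.1% of all genes reached.

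Markers of some other cells moved in the same muscle libraries, where 234 of 12246 genes were called higher. Endothelial markers (median log2 difference -0.11, 0 of 7 called) and adipocyte markers (-0.49, 0 of 8 called) did not rise. The summed TPM of 10 macrophage markers was 344 to 523 in daily muscle against 193 to 275 in vehicle, and 3 of the 10 were called higher. The sum of 6 satellite cell and myoblast markers was 70.5 to 80.7 TPM against 46.2 to 52.1, with a median log2 difference of 0.13 over those tested. Of 5 such markers tested 2 were called higher, namely Myog, a transcription factor of differentiating myoblasts, and Tmem8c, the myoblast fusion protein myomaker. Of the 6 markers 5 reached 1 TPM in each daily muscle library, against 3 to 5 in a vehicle and 4 in a weekly one. A tested marker may thus have passed the filter mainly through daily libraries, so these calls were not read as a rise of the list. Of the 10 fibroblast markers 1 was called higher, the collagen gene Col3a1, with sums of 839 to 1159 TPM against 721 to 943. Smooth muscle and pericyte markers summed to 109 to 137 TPM against 88.1 to 103, with 1 of 6 called higher. Mesothelial markers summed to 2.03 to 4.43 TPM against 1.07 to 1.58, near the floor. Of these 6 markers 0 reached 1 TPM in a vehicle muscle library. The 1 tested passed the filter through libraries of treated mice, mainly daily ones, so its call was not read. The part of these cell types in the Igf2 result was not tested. Over the 9 muscle libraries the genes whose log2(TPM + 1) followed Igf2 most closely were Postn (Pearson r = 0.996), a secreted matrix protein, Tmsb10 (0.996), an actin-binding peptide, and Ctss (0.989), a lysosomal protease. These are descriptions over 9 libraries of 3 groups, among 7314 genes, and Ctss is also one of the macrophage markers.

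The deposited rows are transcripts, and Igf2 has 9 of them. ENSMUST00000000033.11 is a coding transcript whose first exon begins right after the printed upstream stretch. It was 2.74, 4.01 and 1.88 TPM in vehicle muscle, 2.51, 2.88 and 1.88 in weekly and 11.5, 8.28 and 9.13 in daily muscle. It rose by 1.48 ± 0.22 for daily against vehicle (adjusted p = 0.0117, limma over 24128 transcripts). It was also lower in weekly than in daily muscle, by -1.64 (adjusted p = 0.0292). The non-coding model ENSMUST00000163148.2 rose by 1.37 ± 0.24 in daily muscle (adjusted p = 0.0202). All 958 of its bases lie in the last exon of the coding transcript and 0 in its coding part. It held a mean of 51.2% of Igf2 TPM in vehicle and 53.6% in daily muscle, so about as much of the gene's value rests on it as on coding transcripts. Transcripts with the next upstream first exon held 9.09% of Igf2 TPM in vehicle and 6.83% in daily muscle, as means of 3 libraries.

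**Figure D2:**
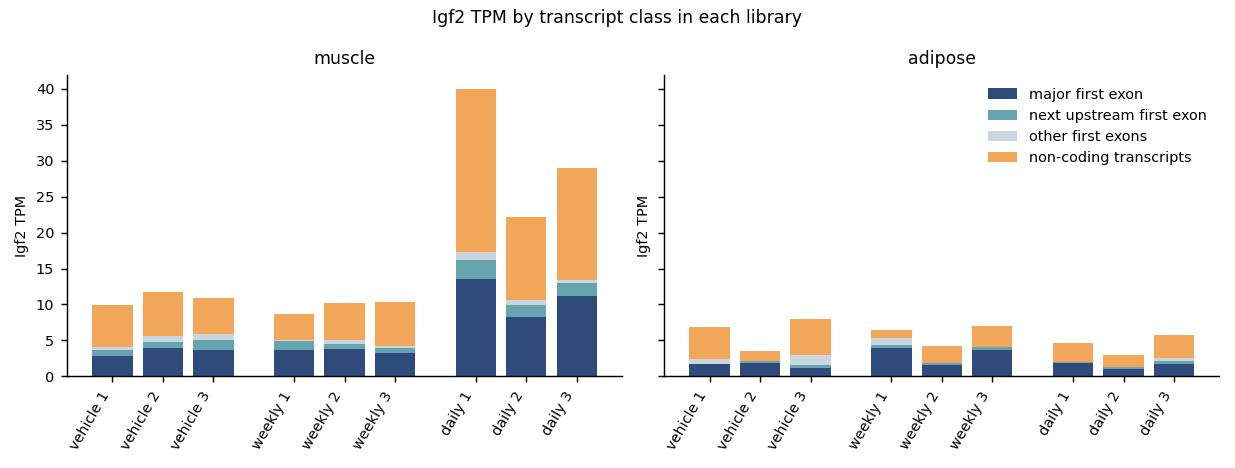
Igf2 TPM in each library, stacked by transcript class (coding transcripts by first exon, and the 2 non-coding transcripts together), for muscle and adipose tissue. The daily muscle bars are taller in both the major first exon class (8.28 to 13.6 TPM) and the non-coding class (11.6 to 22.7 TPM).

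Among transcripts of the 10 genes, 3 of 19 tested were called for daily against vehicle in muscle, against 5.64% of all transcripts, the third being ENSMUST00000027377.8 of Igfbp5. For weekly against daily in muscle 1 of 19 was called, against 0.332%. In adipose tissue 0 of 24 were called for weekly against vehicle, against 0.0855%, and the main Igfbp3 transcript had an adjusted p of 0.0598 there.

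Igf1 (ENSMUSG00000020053.18, chr10:87858265-87937042, plus strand), the ligand that growth hormone induces, had the largest difference between the tissues of the 10. It was 10.9, 13.5 and 10.3 TPM in vehicle muscle and 121, 126 and 126 TPM in vehicle adipose tissue, 9.30 to 12.2 times as much within each mouse. In muscle it was 8.0, 8.73 and 10.2 TPM in weekly and 12.0, 9.52 and 10.5 in daily mice. All weekly muscle libraries were below all vehicle ones, with a difference of -0.33 ± 0.12 and an adjusted p of 0.254, which did not pass. In adipose tissue it was 142, 111 and 109 TPM in weekly and 113, 111 and 117 in daily mice, with no called difference. The 95% interval for daily against vehicle in adipose tissue ran from -0.34 to 0.08.

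Igf1 transcripts differ by a coding exon of 52 bases (chr10:87915298-87915349), which changes the end of the precursor peptide and is shown because its share of Igf1 TPM is described for both tissues. The exon is in capitals, between 20 bases of its neighbours in ENSMUST00000122100.2.
Igf1 exon: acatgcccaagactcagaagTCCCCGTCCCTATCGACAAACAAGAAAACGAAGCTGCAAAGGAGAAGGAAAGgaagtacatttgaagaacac

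Transcripts with this exon held a mean of 34.9% of Igf1 TPM in vehicle, 39.1% in weekly and 37.3% in daily muscle. In adipose tissue they held 45.3%, 44.8% and 46.6%. Single libraries ran from 28.5% to 49.2% in muscle and from 41.5% to 50.0% in adipose tissue, so the tissues overlap, and no test was made of these shares. The genes closest to Igf1 over the 9 muscle libraries were Pigs, Msra and Gga2 (r = 0.914, 0.912 and 0.912). In adipose tissue they were Prpf6, Selenos and Dpt (0.948, 0.945 and 0.934). For adipose Igf2 they were Taf12, Mlx and Pus10 (0.889, 0.877 and 0.851).

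Igf2 made up 48.5% ± 2.6 (SD, n = 3) of the summed ligand TPM in vehicle muscle, 52.1% ± 1.8 in weekly and 73.5% ± 3.4 in daily muscle. In adipose tissue its share was 4.68% in vehicle, 4.68% in weekly and 3.77% in daily mice. Igf1 is thus nearly all of the ligand RNA in fat, and the summed TPM of the ligands are near parity in vehicle muscle. There the Igf2 sum of 10.9 TPM includes 5.64 TPM of non-coding transcripts. All 8 Igf1 transcripts are coding, with a sum of 11.6 TPM, so the parity does not hold for coding transcripts. These shares are descriptions with no test.

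Of the receptors, Igf2r was called in weekly adipose tissue and Igf1r in no comparison between regimens. Igf2r (ENSMUSG00000023830.14, chr17:12682406-12769664, minus strand) was 14.5, 16.3 and 16.6 TPM in vehicle adipose tissue and 26.2, 21.3 and 23.4 in weekly mice. All weekly libraries were above all vehicle ones, a rise of 0.55 ± 0.12 (adjusted p = 0.0276, limma). The call was lost without vehicle library 1, 2 or 3 or weekly library 1 or 3, with adjusted p from 0.0585 to 0.0865, and with no filter on low values (0.0637). Daily adipose libraries were 19.7, 15.6 and 19.8 TPM, overlapping vehicle. In muscle Igf2r was 9.39 to 9.95 TPM in vehicle, 8.16 to 9.47 in weekly and 9.18 to 11.3 in daily mice, with no call.

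Igf1r (ENSMUSG00000005533.10, chr7:67952827-68233668, plus strand), the signalling receptor, was the least abundant member in adipose tissue and among the lowest in muscle. It was 1.81, 2.05 and 1.89 TPM in vehicle adipose tissue and 4.0, 2.78 and 3.20 in weekly mice. The groups did not overlap, but the difference of 0.56 ± 0.16 had an adjusted p of 0.0579 and was not called. In muscle it was 1.52 to 1.56 TPM in vehicle, 1.13 to 1.31 in weekly and 1.22 to 1.63 in daily mice.

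**Figure D3:**
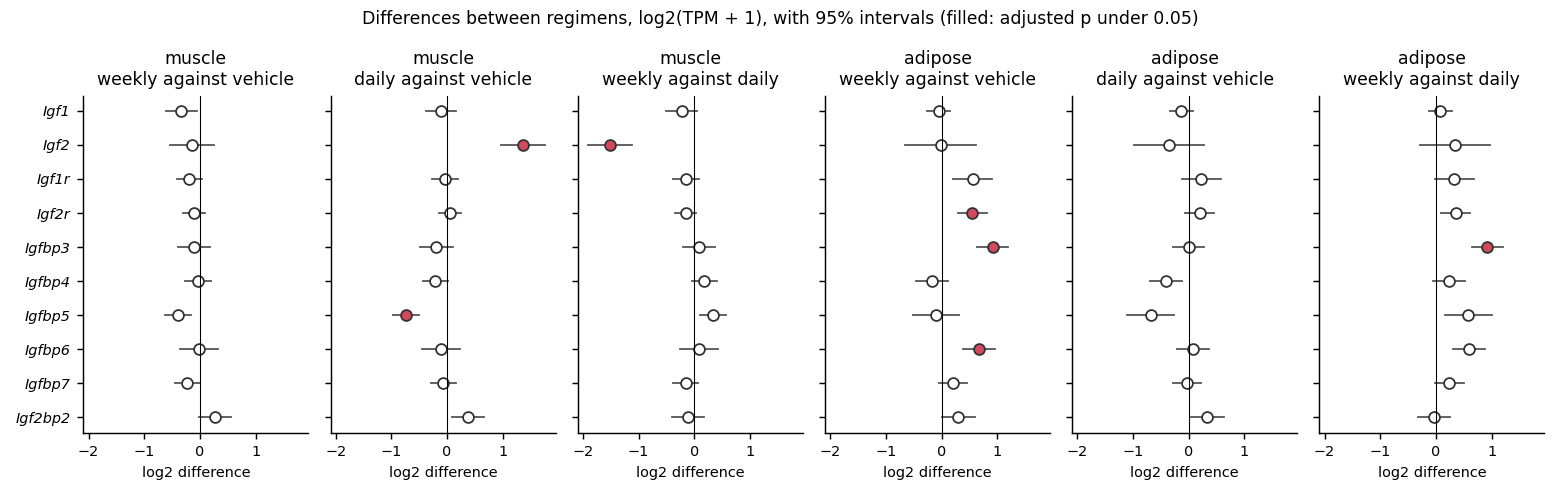
Log2 differences of the 10 genes in log2(TPM + 1) for the 6 comparisons between regimens, with 95% intervals from limma as lines and filled points for genes called at an adjusted p under 0.05. The filled points are Igf2 and Igfbp5 in daily muscle, Igf2 between regimens in muscle, Igf2r, Igfbp3 and Igfbp6 in weekly adipose tissue, and Igfbp3 between regimens there.

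Igfbp5 (ENSMUSG00000026185.8, chr1:72857932-72874884, minus strand), the binding protein that muscle cells make in abundance, was the most abundant member in muscle. It was 307, 231 and 268 TPM in vehicle, 224, 181 and 205 in weekly and 165, 157 and 157 in daily muscle. Daily libraries lay below all vehicle and weekly ones, and the fall against vehicle had an adjusted p of 0.00401 in limma. Weekly libraries lay below all vehicle ones too, with -0.40 ± 0.10 and an adjusted p of 0.172, which did not pass.

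In adipose tissue Igfbp5 was 59.8, 110 and 91.8 TPM in vehicle, 85.2, 73.5 and 78.0 in weekly and 55.6, 45.2 and 56.6 in daily mice. Daily adipose libraries were again below all vehicle ones, with -0.68 ± 0.19 and an adjusted p of 0.332. The daily effect differed between tissues by -0.05 (adjusted p = 0.947, limma), so the tissues were not shown to differ in it. Igfbp5 made up 51.5% ± 5.5 (SD, n = 3) of the summed binding protein TPM in vehicle muscle, 46.4% ± 4.6 in weekly and 40.9% ± 3.1 in daily muscle, which was not tested.

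Igfbp3 (ENSMUSG00000020427.11, chr11:7206086-7213923, minus strand), the main carrier of IGFs in blood, had the largest rise in adipose tissue. It was 6.56, 7.35 and 5.73 TPM in vehicle, 12.9, 13.0 and 13.8 in weekly and 6.28, 7.65 and 5.74 in daily mice. The weekly libraries were about level with each other and all above the rest, while daily and vehicle libraries overlapped. Weekly against vehicle was 0.92 ± 0.12 (adjusted p = 0.0085) and weekly against daily 0.92 ± 0.12 (adjusted p = 0.0223), both in limma. The latter call was lost without daily library 1 or 3 or any 1 weekly library (adjusted p from 0.0565 to 0.135). It was also lost with TMM scaling (0.0939), quantile normalization (0.101), no filter (0.0633), only the 2 groups compared (0.0569) and the replicate block (0.0508). Without the 3 adipose libraries with the most muscle Ckm, which kept only 1 weekly library, the difference between weekly and daily Igfbp3 was 0.99. In muscle it was 5.58 to 8.38 TPM in vehicle, 5.57 to 7.05 in weekly and 5.52 to 6.01 in daily mice.

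Igfbp6 (ENSMUSG00000023046.6, chr15:102144362-102149511, plus strand), which prefers IGF2 over IGF1, was 150, 169 and 150 TPM in vehicle adipose tissue. It was 199, 278 and 281 TPM in weekly and 182, 157 and 156 in daily mice. The rise after weekly prednisone was 0.68 ± 0.13 (adjusted p = 0.021), with no overlap. It was not called with TMM scaling (0.50, adjusted p = 0.0684) or no filter on low values (adjusted p = 0.0607). It was also not called without vehicle library 1 or 3 or weekly library 3 (adjusted p from 0.0576 to 0.0764). Leaving out the 3 adipose libraries with the most muscle Ckm kept only 1 weekly library, so no call was read there. The Igfbp6 difference was then 0.35. Weekly against daily gave 0.60 with an adjusted p of 0.103 and was not called. In muscle it was 80.5 to 109 TPM in vehicle, 83.6 to 102 in weekly and 69.8 to 101 in daily mice.

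Markers of stromal and vessel cells moved with the weekly adipose results. The 10 fibroblast markers summed to 2636 to 3223 TPM in weekly and 2091 to 2229 in vehicle libraries, and 7 of the 10 were called higher. Endothelial markers summed to 370 to 465 TPM against 329 to 355, with 2 of 7 called higher. Mesothelial markers summed to 78.1 to 136 TPM against 50.4 to 78.8, with 3 of 6 called higher, and smooth muscle and pericyte markers to 345 to 434 TPM against 251 to 307, with 1 of 6. Macrophage markers had 4 of 10 called higher. Adipocyte markers (median log2 difference -0.03, 0 of 8 called) and lymphocyte markers (0.20, 0 of 6 called) gave no call. Over all genes 5.72% were called higher, and the median difference was 0.13. With TMM scaling 407 genes were called higher and 841 lower, in place of 809 and 243, and the marker lists were not read under that scaling. The part of these cell types in the Igfbp3, Igfbp6 and Igf2r results was not tested. Skeletal muscle markers summed to 180 to 1551 TPM in weekly and 152 to 260 in vehicle adipose libraries. With their mean as a covariate the differences were 0.83 for Igfbp3, 0.55 for Igfbp6 and 0.74 for Igf2r. That fit called 29.4% of all genes for weekly against vehicle and 12.2% for weekly against daily.

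Igfbp4 (ENSMUSG00000017493.12, chr11:99041244-99054392, plus strand), a binding protein that the protease pappalysin cleaves, was the most abundant member in adipose tissue. It was 422, 532 and 446 TPM in vehicle, 434, 379 and 424 in weekly and 404, 287 and 374 in daily mice. All daily libraries were below all vehicle ones, with -0.40 ± 0.13 and an adjusted p of 0.375. In muscle it was 59.1 to 63.6 TPM in vehicle and 47.4 to 61.4 in daily mice. The non-coding model ENSMUST00000130530.7 held 51.8% of its TPM in vehicle muscle and 55.5% in vehicle adipose tissue.

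Igfbp7 (ENSMUSG00000036256.13, chr5:77349240-77408041, minus strand), a matrix protein that binds IGFs weakly, was 287 to 325 TPM in vehicle, 313 to 392 in weekly and 250 to 332 in daily adipose libraries. In muscle it was 88.7 to 99.7, 75.4 to 84.7 and 77.7 to 105 TPM. Neither tissue gave a call. Igf2bp2 (ENSMUSG00000033581.17, chr16:22059009-22163299, minus strand), which binds Igf2 and other mRNAs, was 1.20, 1.36 and 1.85 TPM in vehicle muscle and 2.49, 2.29 and 1.84 in daily muscle. The groups overlapped by a narrow margin and the difference of 0.38 had an adjusted p of 0.0797. In adipose tissue it was 4.17 to 5.61 TPM in vehicle, 5.74 to 7.13 in weekly and 6.22 to 7.07 in daily mice, above vehicle in every treated library but not called. A retained-intron model, ENSMUST00000134188.7, held 49.0% of its TPM in vehicle muscle and 75.5% in vehicle adipose tissue.

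**Figure D4:**
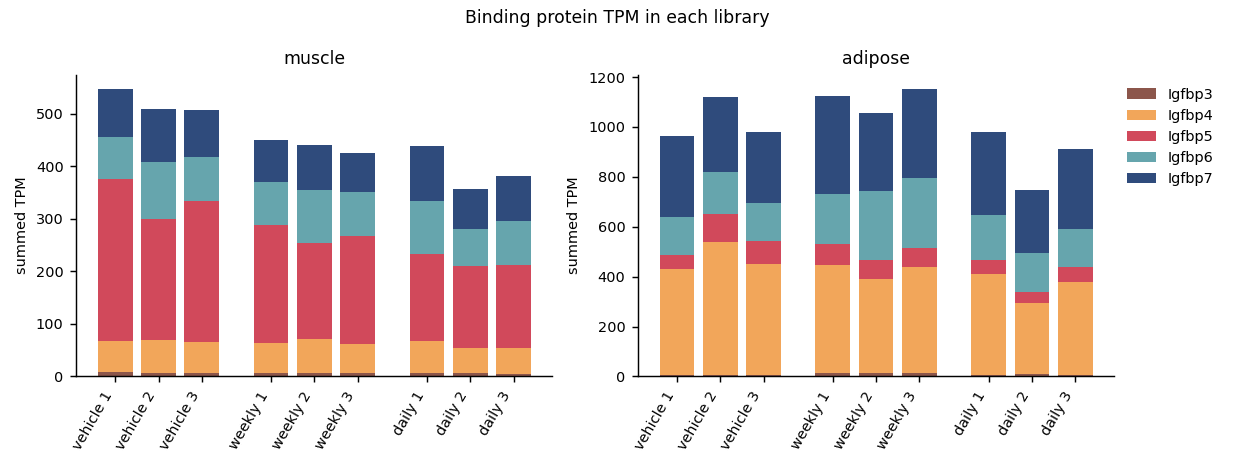
Summed TPM of the 5 binding protein genes in each library, stacked by gene, with separate scales for muscle and adipose tissue. Igfbp5 is the largest part of each muscle bar, and Igfbp4 and Igfbp7 are the largest parts of each adipose bar.

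Per unit of ligand RNA, muscle held 23.4 ± 3.1 TPM of binding protein RNA in vehicle, 23.7 ± 3.2 in weekly and 9.79 ± 1.42 in daily mice (SD, n = 3). In adipose tissue the ratio was 7.84 ± 0.74, 8.88 ± 1.22 and 7.45 ± 0.90. The daily muscle libraries, at 8.44 to 11.3, lay below the other muscle libraries, at 20.2 or more. The ratio combines the Igf2 and Igfbp5 values above and was not tested. Its sums also hold non-coding transcripts, among them those of Igf2 and Igfbp4.

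In vehicle mice the order of TPM in muscle was Igfbp5, Igfbp7, Igfbp6, Igfbp4, Igf1, Igf2, Igf2r, Igfbp3, Igf1r and Igf2bp2. Igfbp7 and Igfbp6 overlapped there, as did Igf1 with Igf2, Igf2 with Igf2r, and Igf1r with Igf2bp2. In adipose tissue the order was Igfbp4, Igfbp7, Igfbp6, Igf1, Igfbp5, Igf2r, Igfbp3, Igf2, Igf2bp2 and Igf1r. Only Igfbp3 with Igf2 and Igf2 with Igf2bp2 overlapped as neighbours in that order.

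Of the 10 genes 8 differed between muscle and adipose tissue of vehicle mice, where 86.3% of all genes were called. Igfbp5 (1.65) and Igf2 (0.79) were higher in muscle. Igf1 (-3.32), Igfbp4 (-2.91), Igfbp7 (-1.70), Igf2bp2 (-1.30), Igfbp6 (-0.78) and Igf2r (-0.66) were lower. The median of all genes was itself -0.88 on this scale. With TMM scaling Igf2r (0.38) and Igfbp6 (0.33) turned to higher in muscle, so their direction depends on the scaling. Without vehicle mouse 2 Igf2 was no longer called (adjusted p = 0.0692, limma), and with coding transcripts alone Igf2bp2 was not (0.0674).

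The weekly effect differed between tissues for 3 of the 10 genes, against 2.56% of all genes. Muscle less adipose tissue was -1.03 ± 0.18 for Igfbp3 (adjusted p = 0.0306), -0.65 ± 0.12 for Igf2r (0.0329) and -0.69 ± 0.14 for Igfbp6 (0.0385), all in limma. Each of these calls was lost with TMM scaling, which called 0 genes in all, and in 11 of 17 alternatives.

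Other genes of the pathway were read from lists, in which Ghr stands under both growth hormone signalling and the other genes of the IGF system. After daily prednisone 6 of 28 genes of signalling below the IGF1 receptor were lower in muscle and 0 higher, with a median of -0.12 against -0.09 for all genes. They were Akt2 (-0.31), the insulin-responsive Akt kinase, Foxo4 (-0.40), a transcription factor that Akt inhibits, Pik3r1 (-0.49), the regulatory subunit of PI3-kinase, Irs1 (-0.79), the docking protein of both receptors, and Tsc1 and Tsc2, which restrain mTORC1. Of 10 growth hormone signalling genes 6 were lower and 0 higher, with a median of -0.36. These included Stat5b (-0.54), the factor that carries the growth hormone signal to Igf1, Socs2 (-1.27), a feedback inhibitor, Ptpn11 (-0.35), a phosphatase, and the receptor Ghr (-0.37). Of 5 tested other genes of the IGF system Ghr alone was lower. Over all genes 234 were called higher and 1440 lower in this comparison, but 339 and 443 with TMM scaling. Under TMM scaling 3 signalling genes were lower (Akt2, Foxo4, Pik3r1) and 1 higher (Grb10). The 4 growth hormone genes lower there were Ptpn11, Socs2, Stat5a and Stat5b. Irs1, Tsc1, Tsc2, Ghr and Sh2b1 were called neither with TMM scaling nor with quantile normalization.

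Stat5b was 50.0 to 57.2 TPM in vehicle, 47.3 to 51.4 in weekly and 34.1 to 37.7 in daily muscle. Socs2 was 8.81 to 16.1 TPM in vehicle, 5.61 to 9.21 in weekly and 4.16 to 4.88 in daily muscle. Both daily groups lay below vehicle without overlap. Between regimens in muscle, Stat5b (0.42, adjusted p = 0.0192) and Foxo4 (0.31, adjusted p = 0.0453) were higher in weekly than in daily mice in limma. The Stat5b call was kept in 14 of 19 alternatives. The Foxo4 call was kept in 5 of 19 and lost with TMM scaling. In adipose tissue Socs3, another feedback inhibitor, rose after weekly prednisone by 0.78 ± 0.14 (adjusted p = 0.0188, limma), from 7.99 to 9.95 TPM to 12.8 to 18.5 TPM. It was 1 of 10 growth hormone genes called there and 0 of 28 signalling genes were called, against 7.43% of all genes. The Socs3 call was lost without vehicle library 3, weekly library 3 or the third library of every group. Akt1 was the only listed gene whose weekly effect differed between tissues (-0.44, adjusted p = 0.0402, limma). That call was kept in 4 of 17 alternatives and lost with TMM scaling.

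**Figure D5:**
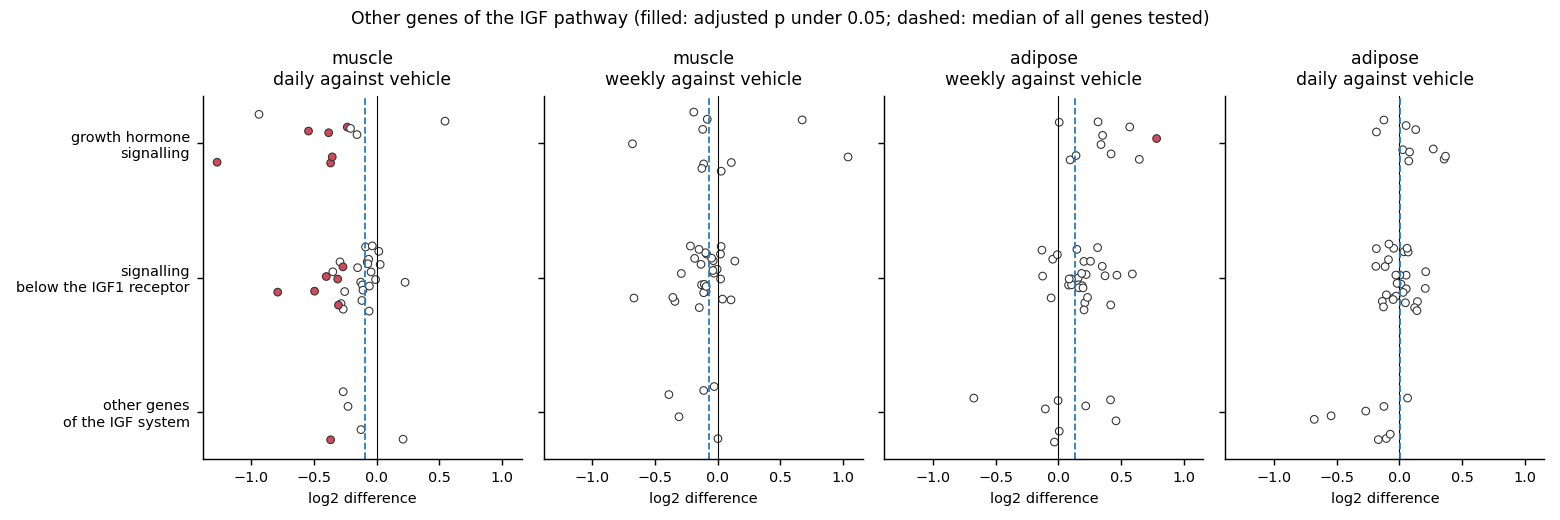
Log2 differences in log2(TPM + 1) of the tested genes of 3 pathway lists in 4 comparisons, a point per gene, filled where called, with the median of all tested genes as a dashed line. In daily muscle all 12 filled points over the signalling and growth hormone lists are below 0.

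In the same vehicle mice 24 of 28 signalling genes were lower in muscle than in adipose tissue, where 72.7% of all genes were called lower. The list's median of -0.90 is close to that of all genes, -0.88. The 2 higher ones were Foxo4 (0.99) and Irs1 (0.99). Of the growth hormone genes Ghr (-3.04), Stat5a (-1.71) and Ptpn11 (-1.59) were lower, and Stat5b (1.48), Socs2 (0.83) and Sh2b1 (0.48) were higher in muscle. Among the other IGF genes Igfals (-3.15), the acid-labile subunit of the circulating complex, and the protease Htra1 (-2.45) were lower in muscle, with Igfals at 21.5 to 29.2 TPM in adipose tissue.

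Results for the muscle and adipose calls rest on 3 mice a group. Leaving out the third library of every group ended the calls of Igf2 (adjusted p = 0.122), Igfbp5 (0.145) and adipose Igfbp3 (0.283), in a fit that called 7 genes of 11999 for daily muscle, while their differences were 1.39, -0.72 and 0.81.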

How the data were processed

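The deposited table holds the authors' TPM values for 105129 transcripts, of which 99505 match GENCODE M21 (GRCm38) by versioned ID. The submitters' processing notes name Trimmomatic, HISAT2, kallisto and mm10, without versions or roles; RNA was extracted with Trizol and RNeasy and made into stranded mRNA libraries, per the labels' protocols. Transcript TPM were summed per symbol. A gene entered a tissue's test, on log2(TPM + 1), where 3 or more of its libraries reached 1 TPM. The fit used limma 3.58.1 in R 4.3.3 (eBayes with trend, 6 residual degrees of freedom), with Benjamini-Hochberg adjustment over all genes and a call at 0.05. Tissues were compared through the difference, muscle less adipose, within a mouse. The fit was checked on simulated data.

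The 10 genes, the pathway and marker lists and most alternatives were chosen with earlier results of these data known. All members are named in every comparison. Of a pathway list, at most 3 called genes per direction with the smallest p are named. In daily muscle Irs1, Tsc1, Tsc2, Stat5a, Sh2b1, Grb10 and, within the growth hormone list, Ghr were named beyond this rule after their values were seen. The nearest 3 genes to each ligand had a mean of at least 5 TPM. Of the 4 motifs searched, the GC box was added after the sequences had been read. A fit on protein-coding transcripts alone was added after seeing the data. Alternatives were TMM and quantile scaling, pseudocounts of 0.1 and 5, other filters, only the groups compared, a muscle marker covariate, a replicate block and libraries left out. Figures used matplotlib 3.10.9.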

Additional observations from a re-analysis of the deposited data

Results flagged for a closer look

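The weekly prednisone effect in muscle less that in adipose tissue differed from 0 in the test of the difference itself (limma over 11737 genes) for 3 of the 10 genes. The difference was -1.03 for Igfbp3, -0.65 for Igf2r and -0.69 for Igfbp6 on the log2(TPM + 1) scale, each from a rise in adipose tissue without a called change in muscle. Each call was kept in 6 of 17 alternatives.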

How the results depend on the processing

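The muscle calls of Igf2 and Igfbp5 and the adipose weekly call of Igfbp3 passed under every alternative but the one without the third library of every group, which gave 0 called members in muscle for daily against vehicle and for weekly against daily, 0 in adipose tissue for weekly against vehicle and for weekly against daily, and 0 for the tissue difference of the weekly effect. Igf2r and Igfbp6 in weekly adipose tissue passed in 14 of 21 alternatives. The alternatives counted for adipose tissue include the fit without the 3 libraries with high Ckm. That fit keeps only 1 weekly library, so it cannot decide a call. For weekly against vehicle in adipose tissue 1 member was called with no filter and 5 with the covariate for muscle transcripts (which called 4162 of 14150 genes in place of 1052), and leaving out single libraries gave 1 to 4. For weekly against daily there, 0 were called with TMM scaling, no filter, only the 2 groups and quantile normalization. With the covariate 5 were called (1730 genes in place of 44), and 0 to 1 with single libraries left out. For daily against vehicle in adipose tissue, leaving out single libraries gave 0 to 1, the 1 being Igfbp5 without vehicle library 1 (adjusted p = 0.0472, limma). For the tissue difference of the weekly effect TMM scaling and no filter gave 0, and leaving out single mice gave 0 to 3. A pseudocount of 5 gave 1 call (Igf2) for the daily effect. TMM scaling reversed muscle against adipose tissue for Igf1r (0.51), Igf2r (0.38) and Igfbp6 (0.33). Transcripts gave 4 calls over the comparisons between regimens and genes 7.

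The labels do not say whether replicate numbers pair mice across regimens. Residuals of the same number had a median correlation of -0.0304 in muscle (-0.12 to 0.11) and 0.0295 in adipose tissue (-0.06 to 0.19). With 9 pairs a tissue these values cannot settle it. With the replicate block 0 members were called for weekly against daily in adipose tissue and 0 for the tissue difference of the weekly effect; counts in the other comparisons stayed within 1.5 times. Over all genes, daily against vehicle in muscle gave 1674 calls, 782 with TMM scaling and 764 with quantile normalization. Weekly against vehicle in adipose tissue gave 809 higher and 243 lower, but 407 and 841 with TMM scaling, which moved the median of all genes from 0.13 to -0.02. With no filter it gave 291 calls, and weekly against daily gave 8 in place of 44. TPM gives no depth, so precision rests on the spread of 3 mice. The third library lay between the others of its group more often than equal shares would give, so that spread may be too small.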
